A study of Mus musculus with 7 samples.

Results

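Potassium channels move potassium ions down their gradient across membranes, and their genes were taken as every symbol of the count table that begins with Kcn, continues with letters and ends in a number. This gave 92 of 40873 genes. They comprised 15 inward rectifiers (Kcnj), 14 tandem-pore-domain or leak channels (Kcnk), 40 voltage-gated pore subunits (Kcna, Kcnb, Kcnc, Kcnd, Kcnf, Kcng, Kcnh, Kcnq, Kcns and Kcnv), 8 calcium- and sodium-activated channels (Kcnma, Kcnn, Kcnt and Kcnu) and 15 auxiliary subunits (Kcne, Kcnab, Kcnip and Kcnmb). Symbols that end in a letter, such as Kcne1l, and the antisense transcript Kcnq1ot1 fell outside the rule.

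The choroid plexus is the secretory epithelium that makes cerebrospinal fluid, together with the vessels, stroma and macrophages beneath it. Its epithelial cells carry the sodium pump on the ventricular side and regulate the potassium of the fluid, and potassium channels return pumped potassium and set the membrane voltage that drives anion secretion. Kcnj13 encodes an inward rectifier of this epithelium, and Kcne2 encodes a single-span beta subunit that partners pore subunits such as that of Kcnq1.

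Poly(A) RNA came from pooled lateral ventricle choroid plexus of wild-type CD-1 mouse embryos, an outbred stock, which were at E15.5 (day of embryonic development) and had been treated 24 h earlier. The 3 red blood cell (RBC) libraries came from embryos given blood cells of an E14.5 donor litter, washed in saline and resuspended in it, and the 4 control libraries came from embryos given saline. The labels call the libraries biological replicates and give all 7 the same batch. They do not state how many embryos or litters a pool held, or the route of treatment, so p-values here reflect only library-to-library spread, part of which may be technical.

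Total counts ran from 4393860 to 8386928 per library. Lists of 8 markers per cell type were summed in CPM (counts scaled to library size). Choroid plexus epithelium markers, led by Ttr, were present in every library, at 16792 to 18307 CPM with RBC and 16965 to 22131 CPM with saline. Of these 8 markers 7 had a negative log2 fold change, with a median of -0.08. In edgeR 0 of them passed over all genes (0.0605% of all genes), and in DESeq2 1 did, Aqp1 (1.64% of all genes). The macrophage markers (Adgre1, Csf1r, Cd68, C1qa, C1qb, C1qc, Fcgr1 and Mrc1) summed to 303.5 to 440 CPM with RBC and 198 to 260 CPM with saline, and all 8 had a positive log2 fold change, of which 1 passed in edgeR over all genes (0.0605% of all genes), 8 in DESeq2 (1.64%), 2 in limma-voom with sample weights (0.323%) and 0 without. The neuron markers (Tubb3, Dcx, Stmn2, Snap25, Syt1, Elavl3, Elavl4 and Map2) summed to 113 to 187 and 158 to 236 CPM, and all 8 had a negative log2 fold change, of which 0 passed. RBC 3 had the highest summed pericyte (854 CPM, against 454 to 580 CPM elsewhere), fibroblast (3307 against 2095 to 2532 CPM), endothelium (1289 against 858 to 1084 CPM) and neural progenitor markers (765 against 544 to 685 CPM). Neutrophil and monocyte markers summed to 3.85 to 85.9 CPM, highest in RBC 2, with Ly6g at 0 counts in every library. In these bulk samples, fewer cells of a type and less RNA per cell cannot be told apart.

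**Figure D1:**
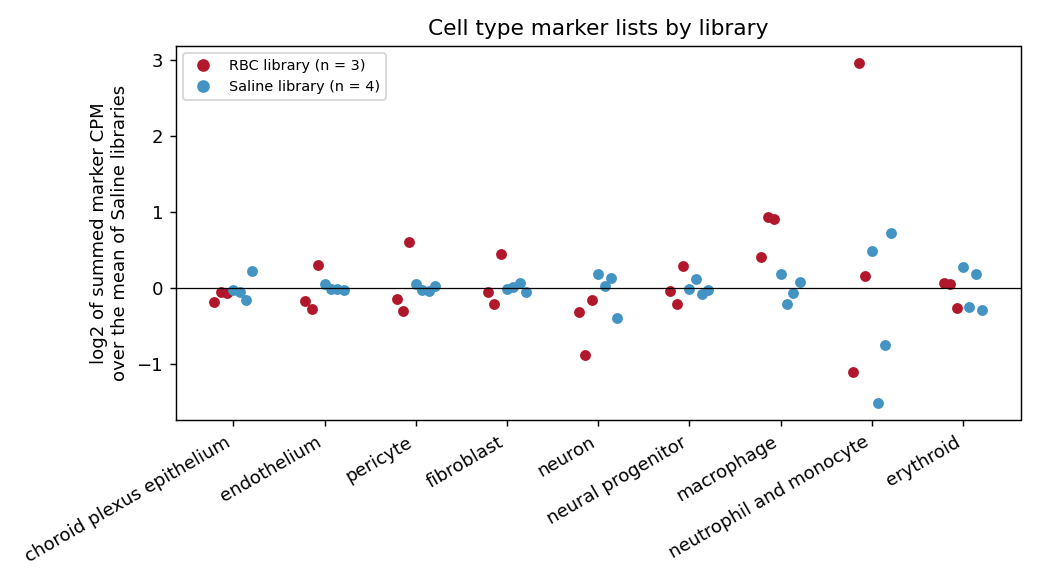
Summed CPM of 9 lists of cell type markers in each library, as log2 over the mean of the 4 saline libraries (vertical axis), with lists along the horizontal axis, RBC libraries in red and saline libraries in blue. All 3 RBC points lie above the saline points in the macrophage list, and RBC 3 stands above the rest in the pericyte, fibroblast, endothelium and neural progenitor lists.

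Of the 92 genes, 4 had 0 counts in every library (Kcna10, Kcnj1, Kcnk15 and Kcnk18), which allows up to 0.0653 CPM over the 7 libraries together, counting error only. Levels between genes were compared as CPM per kb of exon length. On that scale 23 members reached 1 and 4 reached 10 in the mean of the saline libraries, and the sum over all 92 was 905 ± 37.5 CPM per kb with saline (SD, n = 4) and 865 ± 9.89 with RBC (SD, n = 3). The exon length is the union of all annotated exons, so a gene with very long annotated exons ranks low: Kcnd2, a fast-inactivating voltage-gated channel, had 9.44 CPM in saline but 0.0960 CPM per kb over 98276 bases.

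Kcne2 alone held 82.3% to 85.01% of the summed CPM per kb of the family in every library, and Kcnj13 a further 6.01% to 6.64%. Among all genes Kcne2 ranked between 19 and 25 by CPM per kb, while Kcnj13 ranked between 947 and 1208. Kcne2 measured 1292, 1278 and 1251 CPM in RBC 1 to 3 and 1306, 1311, 1286 and 1444 CPM in saline 1 to 4. Saline 4 was the highest library and the groups overlapped, with a log2 fold change (RBC minus saline) of -0.07 ± 0.06 (SE, and adjusted p = 0.822 in edgeR). Kcnj13 measured 360, 321 and 348 CPM in RBC 1 to 3 and 338.5, 369, 362 and 368 CPM in saline 1 to 4. These values also overlapped, with a log2 fold change of -0.07 ± 0.06 (SE, and adjusted p = 0.837 in edgeR). The ratio of Kcne2 to Kcnj13 in CPM per kb lay between 12.5 and 14.0 in all 7 libraries.

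Because these genes carried most of the family's signal, their promoter windows are shown, 250 bases before to 50 bases after each RefSeq start on GRCm38.p6, a different build from that of the counts. Capitals mark TATAAA and CCAAT on either strand, and TAATCC, the core bound by Otx-type homeodomains, was searched on both strands as well. No motif overlapped another. The windows are those of Kcne2 at chr16:92292139-92292438 (plus strand), a second Kcne2 start at chr16:92295366-92295665 (plus strand) and Kcnj13 at chr1:87394680-87394979 (minus strand).
Kcne2 first window: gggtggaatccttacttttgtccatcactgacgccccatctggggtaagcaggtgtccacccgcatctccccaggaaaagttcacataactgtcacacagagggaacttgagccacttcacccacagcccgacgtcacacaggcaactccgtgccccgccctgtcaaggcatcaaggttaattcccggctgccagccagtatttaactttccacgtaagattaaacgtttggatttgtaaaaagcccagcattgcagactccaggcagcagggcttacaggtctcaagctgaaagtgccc
Kcne2 later window: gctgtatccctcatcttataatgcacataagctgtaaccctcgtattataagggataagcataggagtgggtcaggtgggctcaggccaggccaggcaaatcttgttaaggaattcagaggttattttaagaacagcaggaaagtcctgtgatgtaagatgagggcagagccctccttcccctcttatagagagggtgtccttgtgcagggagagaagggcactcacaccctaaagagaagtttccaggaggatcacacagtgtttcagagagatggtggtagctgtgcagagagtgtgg
Kcnj13: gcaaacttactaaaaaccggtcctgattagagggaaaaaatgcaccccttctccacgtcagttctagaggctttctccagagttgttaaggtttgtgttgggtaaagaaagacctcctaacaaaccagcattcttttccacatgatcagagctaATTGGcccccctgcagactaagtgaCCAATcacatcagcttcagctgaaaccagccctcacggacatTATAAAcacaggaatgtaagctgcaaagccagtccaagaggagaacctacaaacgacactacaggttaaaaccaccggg

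The Kcnj13 window held TATAAA beginning 29 bases before the start, CCAAT 71 bases before it and the reverse form of CCAAT 96 bases before it. Neither Kcne2 window held any of the 3 motifs, and none of the windows held TAATCC. Over all 32851 RefSeq promoter windows TATAAA occurred in 13.6%, CCAAT in 37.4% and TAATCC in 7.06%. Among 92 windows of the 67 members with an entry the shares were 5.43%, 30.4% and 2.17%. The first Kcne2 window had 9 CpG and the later window 1, and the counts per gene do not tell which start was used.

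On GRCm39, the build of the counts, Kcne2 spans 92089277 to 92095021 of chromosome 16 (plus strand) and Kcnj13 87309133 to 87322451 of chromosome 1 (minus strand), inside the span of Gigyf2 on the other strand but sharing no exon base with another gene. Kcne1, which encodes another subunit of the Kcne family, lies 47.9 kb from Kcne2 on the other strand and had 9, 17 and 11 counts with RBC and 6, 9, 8 and 5 with saline. Per kb, Kcne2 stood 897- to 2657-fold above Kcne1 in single libraries. Kcnq1, a pore partner of Kcne2 in epithelia, measured 4.77, 3.03 and 4.16 CPM with RBC and 3.99, 4.17, 3.59 and 4.63 CPM with saline, so the groups overlapped. The ratio of Kcne2 to Kcnq1 per kb was 539 to 841. Kcnq1 shares 3.55% of its exon bases with Kcnq1ot1 on the other strand, and while the library preparation was directional, the strand setting used for counting is not stated, so reads of the pair may not have been told apart.

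**Figure D2:**
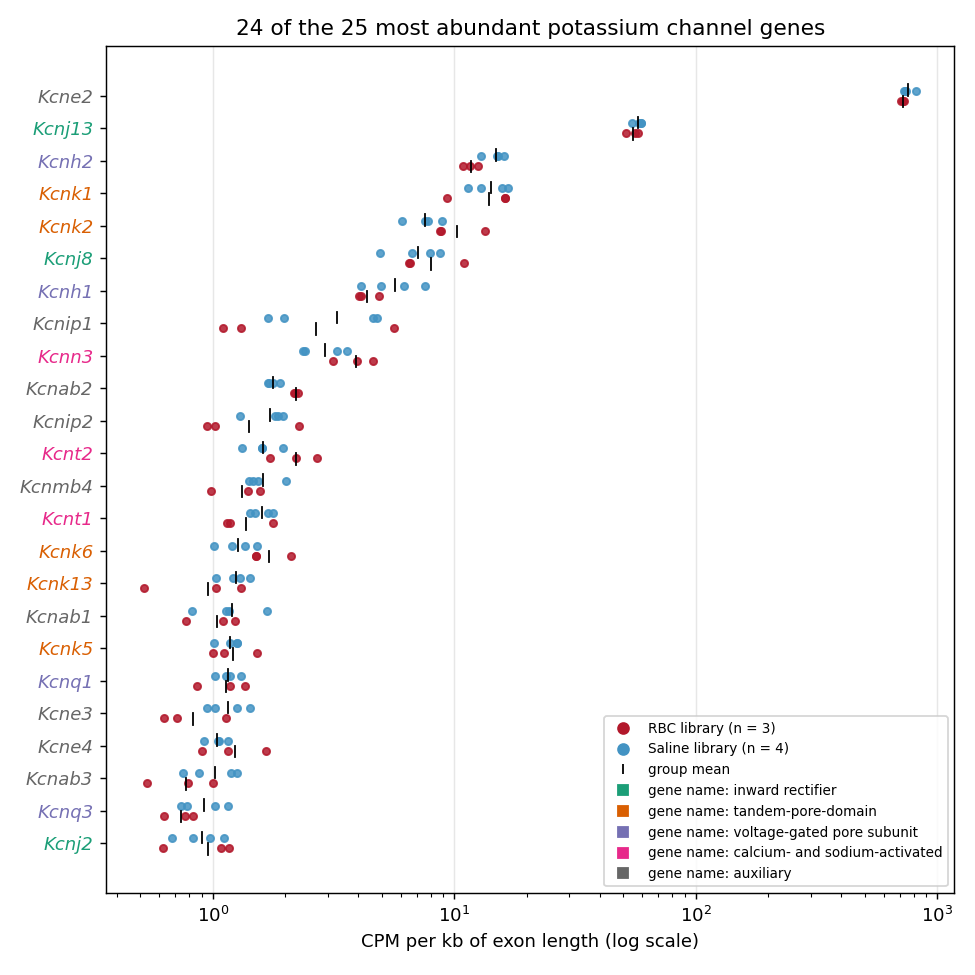
CPM per kb of exon length (horizontal axis, log scale) of 24 of the 25 most abundant potassium channel genes in each RBC (red, n = 3) and saline (blue, n = 4) library, with group means as ticks and gene names coloured by family. Kcne2 stands near 755 and Kcnj13 near 57.7 CPM per kb in the saline mean, and the saline means of the remaining genes are 14.8 or below.

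After Kcne2 and Kcnj13 came Kcnh2, which encodes a slowly deactivating voltage-gated channel (14.8 ± 1.35 CPM per kb, SD, n = 4 saline libraries), and Kcnk1, a weakly conducting leak channel (14.2 ± 2.47). The saline values of this pair overlapped, while Kcnk1 stood apart from the fifth gene, the mechanosensitive leak channel gene Kcnk2 (7.58 ± 1.14). Kcnk2, Kcnj8, Kcnh1, Kcnip1 and Kcnn3 followed, each overlapping the next, and Kcnn3 (2.92 ± 0.623) stood apart from Kcnab2 (1.77 ± 0.0981). From Kcnab2 down to the gene of rank 25 every neighbouring pair overlapped. That stretch included the auxiliary genes Kcnip2 (1.73 ± 0.296) and Kcnmb4 (1.61 ± 0.275), the leak channel genes Kcnk6, Kcnk13 and Kcnk5 (1.28, 1.24 and 1.18) and Kcnab1 (1.20 ± 0.352). Kcnmb4 shares 30.5% of its exon bases with antisense transcripts, so its level is uncertain. Transcripts of the channels long recorded from choroid plexus epithelium as Shaker-type currents were scarce: Kcna3 had 4 to 14 counts and Kcna1 1 to 3 counts per library. The related Kcna6 and Kcna5 ranked above both, with 20 to 44 and 7 to 24 counts. RNA counts of E15.5 bulk tissue do not measure currents. Kcnip1, a calcium-binding subunit of neuronal channels, was uneven between libraries, from 4.54 CPM in RBC 2 to 23.2 CPM in RBC 3, with 6.94 to 19.7 CPM across saline.

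Of the 92 members 54 passed the filter on low counts and were tested between RBC and saline. In edgeR 0 passed over all genes (0.0605% of all genes tested passed), and the lowest adjusted p was 0.1695. In DESeq2 0 members passed (1.64% of all genes), and 0 passed in limma-voom without (0.0605% of all genes) or with sample weights (0.323% of all genes). At an unadjusted p under 0.05 in edgeR there were 12, or 22.2% of the 54, against 9.54% of all genes. These were 7 higher (5.22% of all genes) and 5 lower (4.32% of all genes). The number of 12 became 5 without saline 1 and 7 without RBC 2, and rose without RBC 3. The shares of all genes in those fits are not given here. The median log2 fold change was -0.12, with 35 of 54 below 0, where 50.1% of all genes tested lay below 0 around a median of 0.00. RBC and saline libraries did not overlap for 7 of the 54 (9.59% of all genes tested), 3 of them higher (4.96% of all genes) and 4 lower (4.63% of all genes) with RBC. A member can pass the filter through its higher group alone. Kcnk3 and Kcnh5 reached the 1.49 CPM set by the filter in all 3 RBC libraries and in 0 saline libraries. Both are among the 3 higher members without overlap and among the 7 higher at an unadjusted p under 0.05. Others passed mainly through their higher group. Kcnn4 reached 1.49 CPM in 3 RBC libraries and 1 saline library, and Kcnh7 in 1 RBC library and 4 saline libraries. Kcnn4 and Kcnh7 are also among the 12 at an unadjusted p under 0.05. The counts over tested members are therefore a description and not a test.

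**Figure D3:**
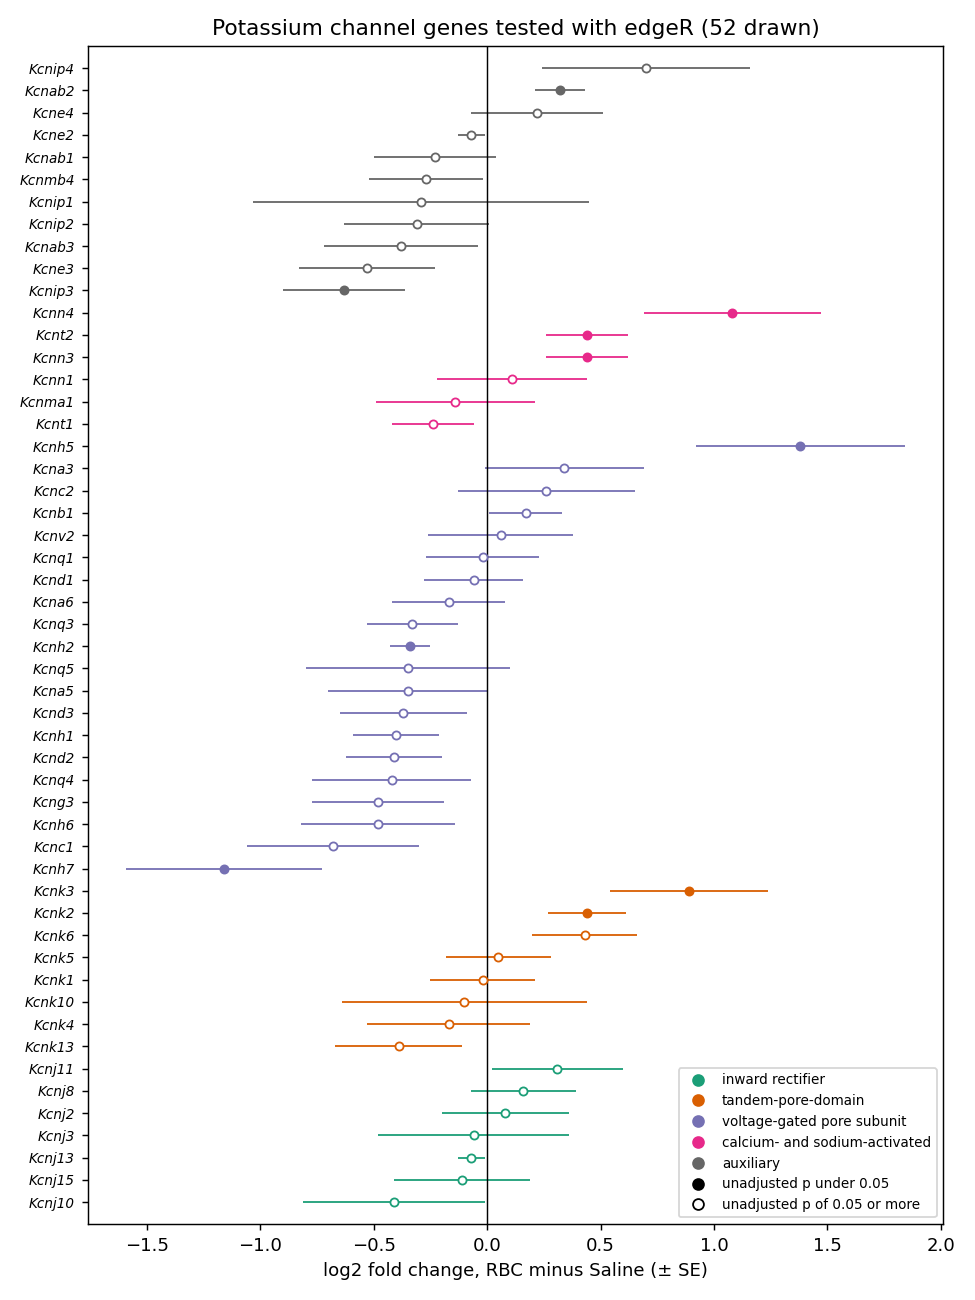
Log2 fold change, RBC minus saline, with its standard error (horizontal axis) for 52 of the 54 tested members, grouped and coloured by family, filled where the unadjusted edgeR p was under 0.05. Most voltage-gated genes lie left of 0, Kcnn3, Kcnn4 and Kcnt2 lie right of it, and 0 genes passed after adjustment over all genes.

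Among inward rectifiers, which pass potassium more readily into the cell than out, 7 of 15 were tested and 0 had an unadjusted p under 0.05, where 9.54% of all genes did, too few genes to set them apart from that share. Their log2 fold changes ran from -0.41 (Kcnj10) to 0.31 (Kcnj11), and that of Kcnj2, a strong rectifier, was 0.08 ± 0.28 (SE; -0.16 to 0.33 over the alternatives). Kcnj8, the pore of the vascular ATP-sensitive channel, measured 16.7, 16.5 and 28.1 CPM in RBC 1 to 3 and 22.2, 20.2, 17.1 and 12.5 CPM in saline 1 to 4. RBC 3 was the highest and saline 4 the lowest, and the log2 fold change of 0.16 ± 0.23 (SE, and adjusted p = 0.916 in edgeR) became -0.13 without RBC 3. Abcc9, the sulfonylurea receptor that assembles with Kcnj8 and a pericyte marker, had 75.0, 70.2 and 107 CPM with RBC and 62.3 to 90.9 CPM with saline. Both genes were highest in RBC 3, the library with the highest pericyte marker sum, and the part of that in the result was not tested.

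Tandem-pore-domain channels carry background leak currents, and 8 of 14 were tested, 4 with a positive and 4 with a negative log2 fold change. Kcnk2 measured 40.9, 40.2 and 61.9 CPM in RBC 1 to 3 and 28.2, 41.1, 36.0 and 34.97 CPM in saline 1 to 4. The groups overlapped through saline 2, and RBC 3 was far above the rest. Its log2 fold change was 0.44 ± 0.17 (SE, unadjusted p = 0.0317 and adjusted p = 0.431 in edgeR), or 0.21 without RBC 3. RBC 3 also had the highest pericyte, fibroblast, endothelium and neural progenitor marker sums, and the part of those cell types in Kcnk2 was not tested. The gene Kcnk2 shares 8.76% of its exon bases with a gene on the other strand, whose reads may not have been told apart. Kcnk3, an acid-sensitive leak channel, had 20, 13 and 12 counts with RBC and 6, 9, 12 and 4 with saline, which in CPM placed all RBC libraries above all saline libraries (log2 fold change 0.89 ± 0.35, SE, and adjusted p = 0.394 in edgeR). Kcnk3 passed the count filter through its RBC libraries alone, so this gap is a description. It shares 6.01% of its exon bases with a gene on the other strand. Kcnk1 measured 88.7 and 88.8 CPM in RBC 1 and 2 but 50.7 CPM in RBC 3, and 86.2, 61.9, 90.9 and 70.6 CPM in saline 1 to 4. With values spread this far in both groups, its log2 fold change was -0.02 ± 0.23 (SE) and its sign changed between alternatives. Kcnk6 measured 6.15, 8.62 and 6.16 CPM with RBC and 4.14, 6.26, 4.90 and 5.56 CPM with saline, with overlap through saline 2 (0.43 ± 0.23, SE, and adjusted p = 0.616 in edgeR). Kcnk13 had -0.39 ± 0.28 and Kcnk5 0.05 ± 0.23 (-0.16 to 0.17 over the alternatives).

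Most voltage-gated pore subunits form channels that open on depolarization, and they are best known from neurons and heart. Of 40 genes 22 were tested, and 17 of these had a log2 fold change below 0, with a median of -0.35. The median ran from -0.22 (without saline 2) to -0.42 (without saline 4) over the alternatives and 0 of the 22 passed over all genes. The number below 0 was 15 to 18 with any single library left out, and 2 of the 17 turned positive in at least 1 alternative, with 1 more range ending at 0 to 2 decimals. Kcnh2 measured 56.3, 64.9 and 59.9 CPM in RBC 1 to 3 and 83.2, 78.5, 77.1 and 66.7 CPM in saline 1 to 4. All RBC libraries lay below all saline libraries, although RBC 2 and saline 4 nearly met. Its log2 fold change of -0.34 ± 0.09 (SE, unadjusted p = 0.00264) had the lowest adjusted p of all members in edgeR (0.1695, and 0.1045 to 0.425 over the alternatives). Kcnh1, an ether-a-go-go channel gene like Kcnh2, had 49.0, 40.4 and 41.3 CPM with RBC and 61.8, 75.9, 49.9 and 41.2 CPM with saline, and the groups overlapped through saline 4 (-0.40 ± 0.19, SE, and adjusted p = 0.590 in edgeR). Kcnd2 measured 5.90, 8.02 and 7.61 CPM with RBC and 8.42, 8.66, 12.3 and 8.34 CPM with saline, with no overlap (-0.41 ± 0.21, SE, and adjusted p = 0.584 in edgeR).

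All 5 Kcnq genes were tested and had log2 fold changes below 0 (50.1% of all genes tested), with a median of -0.35. That of Kcnq1 was -0.02 ± 0.25 (SE), and the values of Kcnq1 and Kcnq5 reached 0.20 and 0.11 under alternatives. Kcnh7, a neuronal relative of Kcnh2, had 6, 6 and 12 counts with RBC and 20, 13, 31 and 9 with saline (log2 fold change -1.16 ± 0.43, SE, and adjusted p = 0.349 in edgeR), and RBC 3 overlapped the saline range in CPM. Kcnh5, an ether-a-go-go channel gene, had the opposite sign, with 12, 14 and 9 counts with RBC and 5, 7, 4 and 1 with saline (log2 fold change 1.38 ± 0.46, SE, and adjusted p = 0.286 in edgeR), without overlap in CPM. Kcnh5 passed the count filter through its RBC libraries alone, so this gap is a description. Kcnh7 passed it mainly through its saline libraries, so its difference is a description as well. The 8 neuron markers had a median log2 fold change of -0.80, and their part in the values of Kcnh7 and the other voltage-gated genes was not tested.

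Calcium- and sodium-activated channels couple potassium exit to ions inside the cell, and 6 of 8 were tested, with a median log2 fold change of 0.28. Without RBC 1 the median was 0.09. Kcnn3, a small-conductance channel, measured 30.1, 35.2 and 24.1 CPM in RBC 1 to 3 and 18.3, 27.4, 18.1 and 25.01 CPM in saline 1 to 4, and the groups overlapped (log2 fold change 0.44 ± 0.18, SE, and adjusted p = 0.431 in edgeR). Kcnt2, a sodium-activated channel, measured 23.2, 19.1 and 14.9 CPM with RBC and 13.7, 13.8, 16.9 and 11.4 CPM with saline, again with overlap (0.44 ± 0.18, SE, and adjusted p = 0.406 in edgeR, and 0.28 without RBC 1). Its paralog Kcnt1 had a log2 fold change of -0.24 ± 0.18. Kcnn4, the intermediate-conductance channel of red cells, where it is known as the Gardos channel, and of macrophages, had 14, 20 and 14 counts with RBC and 12, 6, 7 and 4 with saline. RBC 1 and saline 1 had nearly the same level, and the log2 fold change was 1.08 ± 0.39 (SE, and adjusted p = 0.332 in edgeR). Kcnn4 passed the count filter mainly through its RBC libraries, so this difference is a description. The macrophage marker sum was higher in all 3 RBC libraries than in any saline library, while the 8 erythroid markers summed to 2246 to 2842 CPM with RBC and 2204 to 3276 CPM with saline, and the part of either cell type in Kcnn4 was not tested.

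**Figure D4:**
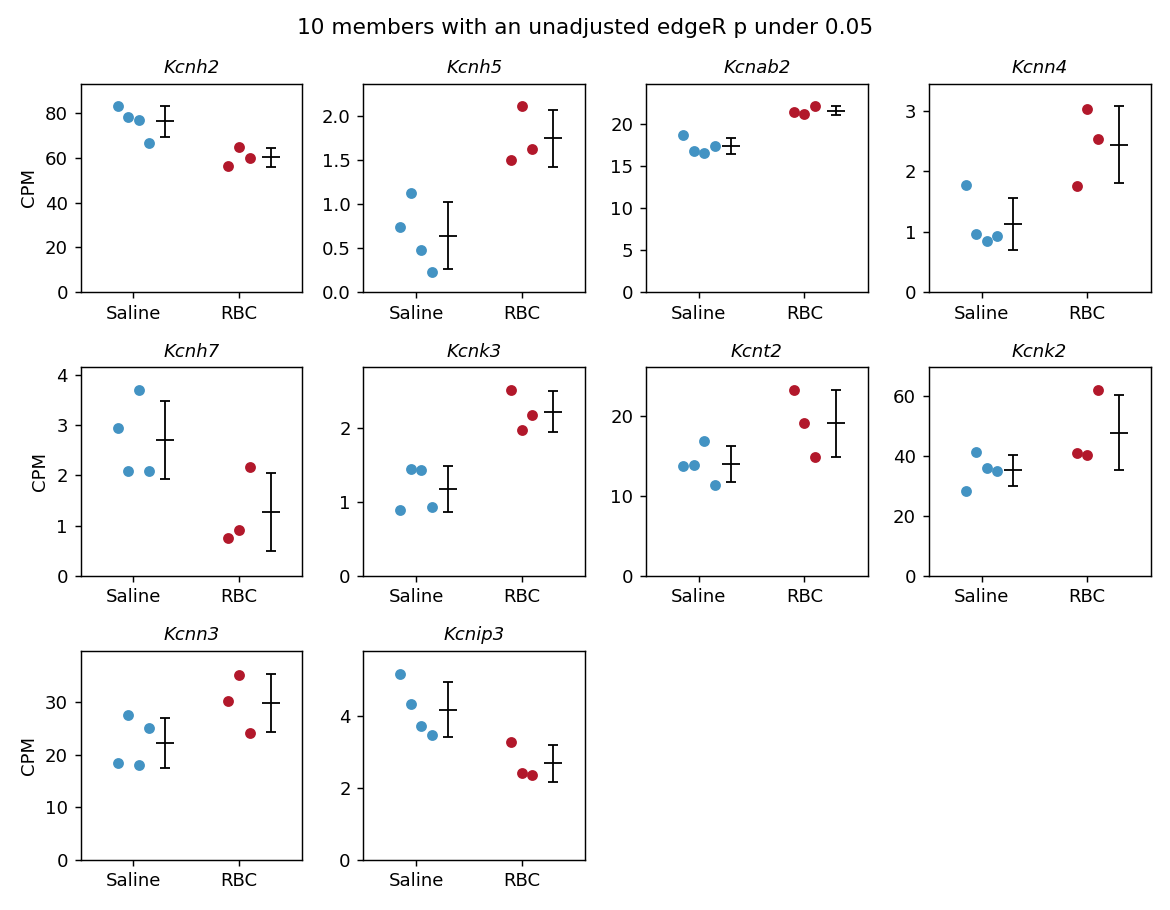
CPM of 10 of the 12 members with an unadjusted edgeR p under 0.05 in each saline (blue, n = 4) and RBC (red, n = 3) library, with the mean and SD beside the points, ordered by p. RBC and saline points do not overlap for Kcnh2, Kcnh5, Kcnab2, Kcnk3 and Kcnip3, and overlap for Kcnn4, Kcnh7, Kcnt2, Kcnk2 and Kcnn3. Kcnk3 and Kcnh5 passed the count filter through RBC libraries alone, Kcnn4 mainly through RBC libraries and Kcnh7 mainly through saline libraries.

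Of 15 auxiliary subunits 11 were tested, 3 with a positive and 8 with a negative log2 fold change. Kcnab2, a beta subunit of Shaker channels with an oxidoreductase fold, measured 21.4, 21.2 and 22.1 CPM in RBC 1 to 3 and 18.6, 16.7, 16.5 and 17.4 CPM in saline 1 to 4. The groups did not overlap and the RBC libraries lay close together, yet the difference was small (log2 fold change 0.32 ± 0.11, SE, and adjusted p = 0.3085 in edgeR). Kcnip3, a calcium sensor also known as calsenilin, measured 3.27, 2.42 and 2.35 CPM with RBC and 5.17, 4.33, 3.71 and 3.47 CPM with saline, without overlap (-0.63 ± 0.27, SE, and adjusted p = 0.481 in edgeR). Kcnip2, Kcnmb4 and Kcnab1 had -0.31 ± 0.32, -0.27 ± 0.25 and -0.23 ± 0.27 (SE), and Kcnmb4 reached 0.01 under an alternative. Kcne3 and Kcne4, relatives of Kcne2, had log2 fold changes of -0.53 ± 0.30 and 0.22 ± 0.29 (SE), and neither had an unadjusted p under 0.05. The value of Kcne4 reached -0.02 under an alternative.

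Among 32 other genes of potassium handling and channel assembly 24 were tested, 0 passed over all genes in edgeR (0.0605% of all genes), and 2, or 8.33%, had an unadjusted p under 0.05, where 9.54% of all genes did. The number was 5 without RBC 3 and 4 without saline 2, with the shares of all genes in those fits not given here. The median log2 fold change of the 24 was -0.07. Fxyd1, a regulator of the sodium pump, measured 68.6, 76.1 and 70.3 CPM with RBC and 118, 87.6, 121 and 85 CPM with saline, with no overlap. Its log2 fold change of -0.53 ± 0.13 (SE) gave an edgeR adjusted p of 0.168 and a DESeq2 adjusted p of 0.0191, where 1.64% of all genes passed in DESeq2. Slc12a7, a potassium-chloride cotransporter, had 88.5 to 107 CPM with RBC and 71.1 to 83.4 CPM with saline (0.29 ± 0.09, SE, and adjusted p = 0.250 in edgeR). The pump subunit gene Atp1b1 had a log2 fold change of -0.09 ± 0.12. Slc5a3, the myo-inositol transporter that can associate with Kcnq1 and Kcne2, had -0.08 ± 0.11, and the cotransporter gene Slc12a2 had 0.07 ± 0.17.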

How the data were processed

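Per the file headers, the authors deposited raw counts for each gene and library, with exon positions and lengths. Per the submitters' processing notes the tools were cutadapt 2.5, STAR 2.6.1b and featureCounts 2.0.6 on GRCm39. The sources used here do not state the annotation release or the strand and multi-mapping settings. The lines of 6 of 40879 genes, none of them a potassium channel gene, were broken and left out, and the 6 lines without a gene name held 0.107% of counts.

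All 7 libraries entered 1 edgeR 4.0.16 quasi-likelihood fit (robust, TMM, genes kept by filterByExpr: 14869, R 4.3.3), with Benjamini-Hochberg adjustment over all genes and a threshold of 0.05. CPM use TMM library sizes, and CPM per kb divide by the deposited exon length. A count of 3 equals 0.358 to 0.683 CPM per library. Chi-square statistics per degree of freedom between libraries were at least 3.6, so no pair agreed within sampling noise. Members, lists and tests were chosen with earlier results of these data known. Named genes were the 20 most abundant members, the 3 most abundant per family, those at an unadjusted p under 0.05, and Kcnj13, Kcne2, Kcnq1, Kcna1, Kcna3, Kcnk1 and Kcnj8, besides partner genes at an unadjusted p under 0.05 and Atp1b1, Slc12a2, Abcc9 and Slc5a3, and further members were named after their values were seen. Some genes that the rule names are not reported here, though they enter the counts and medians. Fits were checked on simulated counts. Alternatives were DESeq2 1.42.0, limma-voom 3.58.1 with and without sample weights, other normalizations and filters, no robust estimation, a replicate block, and libraries left out.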

Additional observations from a re-analysis of the deposited data

Results flagged for a closer look

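Among 28 members checked, the highest of the 4 saline libraries stood apart from the others for 2 genes, where chance alone flags about 1 in 20 groups. Saline 4 gave 1444 CPM for Kcne2, where saline 1 to 3 lay between 1286 and 1311 CPM. Saline 4 also had the highest choroid plexus epithelium marker sum (22131 CPM, against 16792 to 18722 CPM elsewhere), and its part in the Kcne2 value was not tested. Saline 1 gave 1.77 CPM for Kcnn4, where saline 2 to 4 lay between 0.837 and 0.963 CPM.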

How the results depend on the processing

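The count of members past the threshold was 0 in all 18 alternatives, and the signs of 14 of the 17 members followed setting by setting did not change in any alternative that could fit them. Low counts limit the rest: 38 of 92 members fell below the filter, and Kcnh7 and others were not tested at a mean count of at least 50. The number of genes called over the whole table moved from 9 to 282 with DESeq2, 48 with limma-voom sample weights, 136 without a count filter, 16 without robust estimation and 40 without RBC 2 and saline 4, and ran from 1 (without saline 1, 2 or 3) to 283 (without RBC 3) with single libraries left out, with 34, 17 and 5 without RBC 2, RBC 1 and saline 4. Members at an unadjusted p under 0.05 went from 12 to 6 at a mean count of at least 50 and 6 without RBC 2 and saline 4, and ran from 5 (without saline 1) to 14 (without RBC 3), with 7 without RBC 2. Of the partner genes 1 passed in DESeq2 (Fxyd1, where 1.64% of all genes passed), 2 to 5 had an unadjusted p under 0.05 with single libraries left out and 5 without RBC 2 and saline 4, and their median was 0.00 at a mean count of at least 50 and -0.09 to -0.01 with single libraries left out. For these counts of members and partner genes at an unadjusted p under 0.05, the shares of all genes in the same fits are not given here. Of all 54 tested members 17 changed sign in at least 1 alternative, Kcnip1 (-1.39 to 0.31), Kcnk5, Kcnj2, Kcne4 and Kcnmb4 among them. Of the 17 members followed setting by setting 3 did, with the cause not tested: Kcnk1 (0.07 with sample weights, -0.14 to 0.19 with single libraries left out), Kcnq1 (0.00 with sample weights, 0.02 with the replicate block, -0.18 to 0.14 with single libraries left out, 0.20 without RBC 2 and saline 4) and Kcnj8 (-0.03 with sample weights, -0.13 without RBC 3 to 0.29 without RBC 1). With the replicate number as a block 2 genes were called. Deviations of same-numbered libraries correlated at -0.008, -0.173 and -0.173, and RBC 1 correlated best with saline 3 (0.261). No sign of pairing by number was seen, but correlations over all genes cannot exclude it. Of the 10 most abundant members 9 or 10 were among the first 10 in each alternative run for the order, with 9 when exon length was not divided out.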

Other observations

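Of the 38 members below the count filter, 34 had at least 1 count. Kcnk12, a leak channel that gives little current by itself, had 7, 7 and 4 counts with RBC and 2, 1, 1 and 1 with saline. Kcnj6, a G-protein-gated inward rectifier of neurons, had 0 counts in all 3 RBC libraries and 3, 4, 4 and 0 in saline 1 to 4. Kcna4, a rapidly inactivating Shaker channel, had 0, 0 and 1 counts with RBC and 3, 3, 4 and 2 with saline. In the edgeR fit without a count filter the adjusted p was 0.314 for Kcnk12, 0.253 for Kcnj6 and 0.472 for Kcna4. These 3 genes were chosen after their values were seen.

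The members lie on 19 chromosomes, and 18 of them form 10 neighbouring pairs within 200 kb of each other on GRCm39. In saline, the levels of 3 such groups, chosen after their values were seen, were as follows. On chromosome 11 Kcnj2, a strong inward rectifier, had 0.899 CPM per kb, and Kcnj16, which ends 38.2 kb before it, had 0.109. On chromosome 6 Kcna5 and Kcna6 had 0.763 and 0.852 CPM per kb, while Kcna1 between them had 0.0340. On chromosome 14 Kcnk5 had 1.18 CPM per kb and Kcnk16, 79.6 kb away, had 2 counts in saline 4 and 0 in every other library.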
